A study of Homo sapiens with 6 samples.

Results

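The genes examined here were 35 genes of glycolysis and of the hypoxia-inducible factor (HIF) response, chosen by gene symbol out of the 53826 entries of each expression table. They comprised 21 genes of glucose uptake and glycolysis, 8 other hypoxia targets, and 6 HIF subunits and oxygen-sensing genes. RNA-seq measured them in 3 libraries each of the A549-GFP and A549-TIPARP lines. Both derive from A549, a human line of lung adenocarcinoma, and both lines were made by stable retroviral transduction, A549-TIPARP cells with the TIPARP coding region and A549-GFP cells with GFP in its place. No other treatment, and no hypoxic culture, is stated for either line, and the sources used here do not say whether the libraries came from separate transductions, so that p-values measure only the spread between these libraries. The values were log2 TPM (a gene's share of all transcripts in a library, corrected for length), with every TPM under 1 set to 1. TPM keeps no read depth, so that the depth of a library is unknown and no counting error could be given. Values of single libraries are listed in the order of replicates 1, 2 and 3. In bulk RNA, fewer cells of a type and less RNA per cell cannot be told apart.

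In glycolysis a cell takes up glucose and splits it in a chain of enzymes into pyruvate, which lactate dehydrogenase can turn into lactate. HIF-1 is a transcription factor made of an oxygen-regulated alpha subunit and a constant beta subunit. In oxygen, the prolyl hydroxylases EGLN1 and EGLN3 mark the alpha subunit for VHL, which sends it to the proteasome, and HIF1AN hydroxylates it so that it no longer binds its coactivators. In hypoxia the alpha subunit accumulates and raises the transcription of many glycolytic enzymes and of EGLN1 and EGLN3 themselves. Many tumour lines, A549 among them, run glycolysis at a high rate also in oxygen. TIPARP, a mono-ADP-ribosyltransferase, has been described elsewhere as a negative regulator of HIF-1α, and the comparison of the lines was made here for the transcripts of this pathway. HIF-1α is regulated mainly as a protein, which RNA-seq does not measure.

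The TPM of TIPARP was 6.79, 11.4 and 3.68 in A549-GFP and 131, 90.5 and 123 TPM in A549-TIPARP cells, or 17.2-fold more. Its limma adjusted p was 0.0125, and from 0.00997 to 0.513 over the alternatives. Gene values do not separate the transgene from the endogenous gene. The epithelial markers and the genes known to be high in A549 cells were present in every library, the former with a summed TPM of 8341 to 21240 in A549-GFP and 16520 to 19960 in A549-TIPARP cells. KRT8 and KRT18 made up most of that sum and were lowest in A549-GFP replicate 2, at 3855 and 4176 TPM. KRT19 was higher in A549-TIPARP cells without overlap, at 4.58, 2.54 and 5.36 TPM in A549-GFP and 19.2, 19.0 and 10.9 TPM in A549-TIPARP cells (limma p of 0.000408, adjusted p of 0.283). The other epithelial markers overlapped, with EPCAM 1.23-fold lower. Of the genes high in A549, AKR1B10 was lower without overlap, at 7637, 5621 and 6749 TPM in A549-GFP and 5397, 5539 and 4938 TPM in A549-TIPARP cells (limma p of 0.0797). The others of that list overlapped. Of the 5 alveolar type II markers, SFTPA1, SFTPB, SFTPC and NKX2-1 were at the floor in all 6 libraries, and all 4 endothelial markers were too. Of the 4 mesenchymal markers 3 were at the floor throughout, as were 2 of the 4 blood markers. The remaining mesenchymal marker, COL1A1, was near the floor but higher in A549-TIPARP cells without overlap, at 1.44, 1 and 1.31 TPM in A549-GFP and 1.84, 1.64 and 2.56 TPM in A549-TIPARP cells (limma p of 0.0913). The blood marker CD14 ranged from 1 to 4.98 TPM and from 2.23 to 5.63 TPM. The part of these markers and of KRT19 and AKR1B10 in the results was not tested. A549-GFP replicate 2 stood apart from the rest, with deviations from the line's mean whose root mean square was 0.621 on the log2 scale against 0.185 to 0.400 for the other libraries. In A549-TIPARP cells the deviation was highest for replicate 3, at 0.33.

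Of the 35 genes, 34 passed the limit of TPM above 2 in at least 1 library, and HK2 was listed at 0 in all 6 libraries. By limma over all 13181 analysed genes, none of the 34 had an adjusted p under 0.05, against 0.0152% of all genes. At an unadjusted p under 0.05 there were 3 higher genes in A549-TIPARP cells, PFKFB3, NDRG1 and ADM, where the share over all genes was 2.97%. There were 3 lower genes, EPAS1, EGLN1 and ANKRD37, where the share over all genes was 0.88%, or 6 genes in either direction against 3.85%. ANKRD37 passed the limit through A549-GFP libraries alone and was at the floor in the A549-TIPARP libraries, so that it had to differ, and nothing is read from its place in this or the next counts. The lines did not overlap for 8 of the 34 genes, against 8.91% of all genes, with A549-TIPARP higher for 5, against 5.36%, and lower for 3, against 3.54%. The 8 genes were PFKFB3, NDRG1, ADM, BNIP3L and HK1 on the higher side and EPAS1, EGLN1 and ANKRD37 on the lower side. Past 1.5-fold on the deposited values there were 3 higher genes, ALDOC, PFKFB3 and NDRG1, against 5.7% of all genes, and 2 lower, EPAS1 and ANKRD37, against 3.02%. Past 2-fold was ANKRD37 alone, on the lower side, against 0.432%. The median log2 fold change of the 20 analysed glycolytic genes was -0.0075, that of the 8 other hypoxia targets was 0.10 (0.14 without ANKRD37) and that of the 6 HIF and oxygen-sensing genes was -0.19, beside -0.07 over all analysed genes. Without A549-GFP replicate 2 these medians were -0.17, 0.27, -0.17 and 0.05. Without that library 5 of the 34 genes were higher at an unadjusted p under 0.05, with ENO2 and BNIP3L added, and 3 were lower, with LDHA in place of EGLN1. Over all analysed genes the higher count then went from 392 to 1226, or 9.3%, and the lower count from 116 to 153, or 1.16%.

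**Figure D1:**
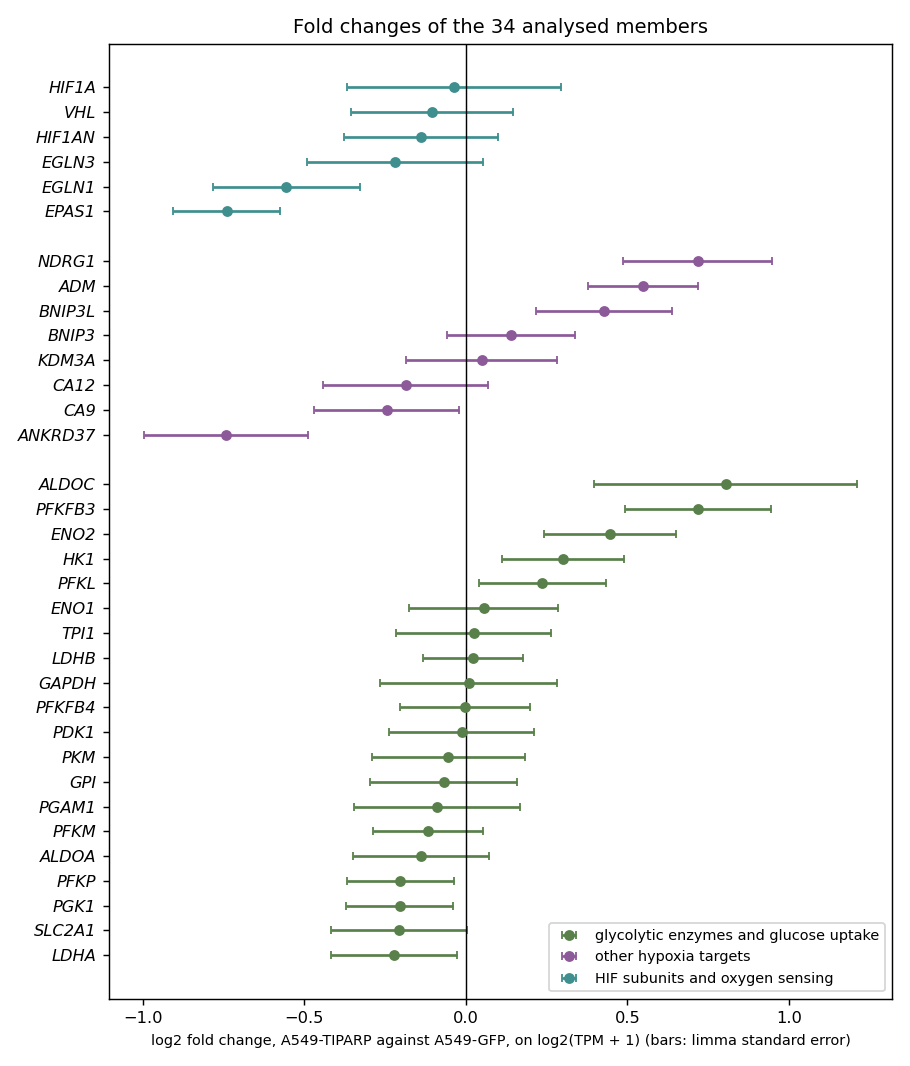
Log2 fold change of the 34 analysed genes on log2(TPM + 1), A549-TIPARP against A549-GFP (x axis), with the limma standard error as bars, by gene (y axis) and coloured by functional group. Most glycolytic enzymes lie within 1 standard error or a little more of 0, while EPAS1 and EGLN1 lie lowest among the HIF genes, NDRG1 and ADM highest among the other targets, and ANKRD37 was at the floor in all A549-TIPARP libraries.

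The hypoxia response element that HIF binds has the core letters ACGTG or GCGTG. The bases upstream of the RefSeq start sites (build GRCh38.p14) are shown for EPAS1, EGLN1, ADM and PFKFB3, which had an unadjusted p under 0.05, and for ANKRD37, which was at the floor in A549-TIPARP cells, since this is where such a core can be read. NDRG1, BNIP3L and VHL were not in the promoter table. Each sequence holds the 250 bases before the start site, 5′ to 3′ on the strand of the gene, with every ACGTG or GCGTG on that strand, and CACGT or CACGC where the core is on the other strand, in capitals. The windows lie at chr2:46297157-46297406 (plus strand), chr1:231422288-231422537 (minus strand), chr4:185396591-185396840, chr11:10304823-10305072 and chr10:6202682-6202931 (the last 3 on the plus strand). For PFKFB3, which has 2 windows in the table, the one with more matches is shown.
EPAS1: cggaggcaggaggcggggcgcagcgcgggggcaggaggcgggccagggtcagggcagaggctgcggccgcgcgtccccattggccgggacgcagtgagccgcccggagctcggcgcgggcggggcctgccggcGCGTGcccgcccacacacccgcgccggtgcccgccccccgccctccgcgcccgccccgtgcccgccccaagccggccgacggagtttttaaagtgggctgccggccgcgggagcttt
EGLN1: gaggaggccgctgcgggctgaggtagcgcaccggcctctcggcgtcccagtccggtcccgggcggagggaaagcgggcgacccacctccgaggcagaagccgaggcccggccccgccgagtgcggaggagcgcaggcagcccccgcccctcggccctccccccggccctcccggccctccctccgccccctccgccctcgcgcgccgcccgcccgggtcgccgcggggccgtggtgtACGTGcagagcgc
ANKRD37: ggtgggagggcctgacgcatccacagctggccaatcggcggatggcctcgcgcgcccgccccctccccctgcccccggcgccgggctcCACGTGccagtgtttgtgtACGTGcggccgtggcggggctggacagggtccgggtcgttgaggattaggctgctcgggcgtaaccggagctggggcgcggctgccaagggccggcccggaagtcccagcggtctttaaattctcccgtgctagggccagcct
ADM: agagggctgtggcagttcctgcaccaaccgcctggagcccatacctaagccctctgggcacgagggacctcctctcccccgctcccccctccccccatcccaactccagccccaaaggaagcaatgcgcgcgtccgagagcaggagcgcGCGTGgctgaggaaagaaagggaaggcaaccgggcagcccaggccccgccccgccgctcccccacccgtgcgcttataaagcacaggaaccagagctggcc
PFKFB3: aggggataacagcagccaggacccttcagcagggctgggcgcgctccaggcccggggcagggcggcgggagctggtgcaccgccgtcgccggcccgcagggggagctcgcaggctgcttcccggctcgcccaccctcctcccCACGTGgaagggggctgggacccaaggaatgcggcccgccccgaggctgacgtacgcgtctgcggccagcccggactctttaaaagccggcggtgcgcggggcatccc

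The ACGTG of EGLN1 ended 9 bases before the start site. ANKRD37 held 3 matches, of which CACGT and ACGTG overlap as the palindrome CACGTG, and the same palindrome gave both matches of PFKFB3. Such a palindrome is also the letters of an E-box. Of the 35 genes 32 were in the promoter table, with 56 windows of these 250 bases, and 26 of the 32 had a match in at least 1 window. A match was found in 58.9% of their windows and in 43.2% of all 35116 windows. ACGTG or CACGT alone was found in 35.7% of their windows and 18.5% of all windows. Windows of 1 gene can share bases, and a match describes letters and not a bound site.

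Among the HIF subunits, EPAS1, which encodes HIF-2α, was lower in A549-TIPARP cells and HIF1A, which encodes HIF-1α, was close to level. EPAS1 (Entrez Gene ID 2034) is located on chromosome 2 (hg38) between 46293667 and 46386697, plus strand in GENCODE release 44. It had 243, 229 and 183 TPM in A549-GFP and 127, 134 and 128 TPM in A549-TIPARP cells. Every A549-TIPARP library was below every A549-GFP library, and the A549-TIPARP libraries lay close together. The mean log2 TPM was 7.76 ± 0.21 (SD, n = 3) against 7.02 ± 0.04 (SD, n = 3), 1.68-fold lower. With 1 added to each TPM, the change on the log2 scale was -0.74 (standard error 0.17), with a limma p of 0.00182 and an adjusted p of 0.490. It was the lowest p among the 34 genes, and on omission of single libraries p ran from 0.00106 to 0.0115. The adjusted p ran from 0.240 to 1 over the alternatives.

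HIF1A (Entrez Gene ID 3091) had 67.0, 107 and 38 TPM in A549-GFP and 60.4, 60.7 and 68.9 TPM in A549-TIPARP cells. The A549-TIPARP libraries lay inside the range of the A549-GFP libraries, which differed among themselves by more than any difference between the lines. Its log2 fold change was -0.04 (limma p of 0.915), and 0.33 without A549-GFP replicate 2. EPAS1 stood above HIF1A in all 6 libraries, by a TPM ratio of 3.63, 2.15 and 4.82 in A549-GFP and of 2.10, 2.21 and 1.85 in A549-TIPARP cells. The ratios overlapped between the lines.

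EGLN1, the main prolyl hydroxylase that marks HIF-α in oxygen, was lower in A549-TIPARP cells. The gene (Entrez Gene ID 54583) is located on chromosome 1 (hg38) between 231363751 and 231422287, minus strand. It had 57.6, 61.4 and 36.5 TPM in A549-GFP and 32.3, 35.8 and 34.2 TPM in A549-TIPARP cells. The lines did not overlap, but A549-GFP replicate 3 was close to the highest A549-TIPARP library. The mean log2 TPM was 5.66 ± 0.41 against 5.09 ± 0.08 (SD, n = 3 each), 1.48-fold lower, with a limma p of 0.0384 and an adjusted p of 0.994. Omitting single libraries gave p from 0.00261 to 0.122, and p was above 0.05 in each such fit except that without A549-GFP replicate 3. With the replicate number as a block p was 0.0525. The adjusted p ran from 0.563 to 1 over the alternatives.

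The other oxygen-sensing genes overlapped between the lines. EGLN3, a prolyl hydroxylase that HIF-1 itself induces, ranged from 22.7 to 38.1 TPM in A549-GFP cells and from 18.4 to 32.3 TPM in A549-TIPARP cells. VHL, the substrate receptor of the ubiquitin ligase, had 30.4, 46.6 and 23.8 TPM in A549-GFP and 30.5, 29.2 and 30.5 TPM in A549-TIPARP cells. HIF1AN, the asparaginyl hydroxylase, had 16.4, 25.0 and 15.1 TPM and then 16.1, 18.6 and 15.3 TPM in the same order. For VHL and HIF1AN the A549-GFP value furthest from the rest was that of replicate 2. All 6 genes of this group had lower means in the A549-TIPARP line, as had 7896 of the 13181 analysed genes, and HIF1A, VHL and HIF1AN had a higher one without A549-GFP replicate 2.

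**Figure D2:**
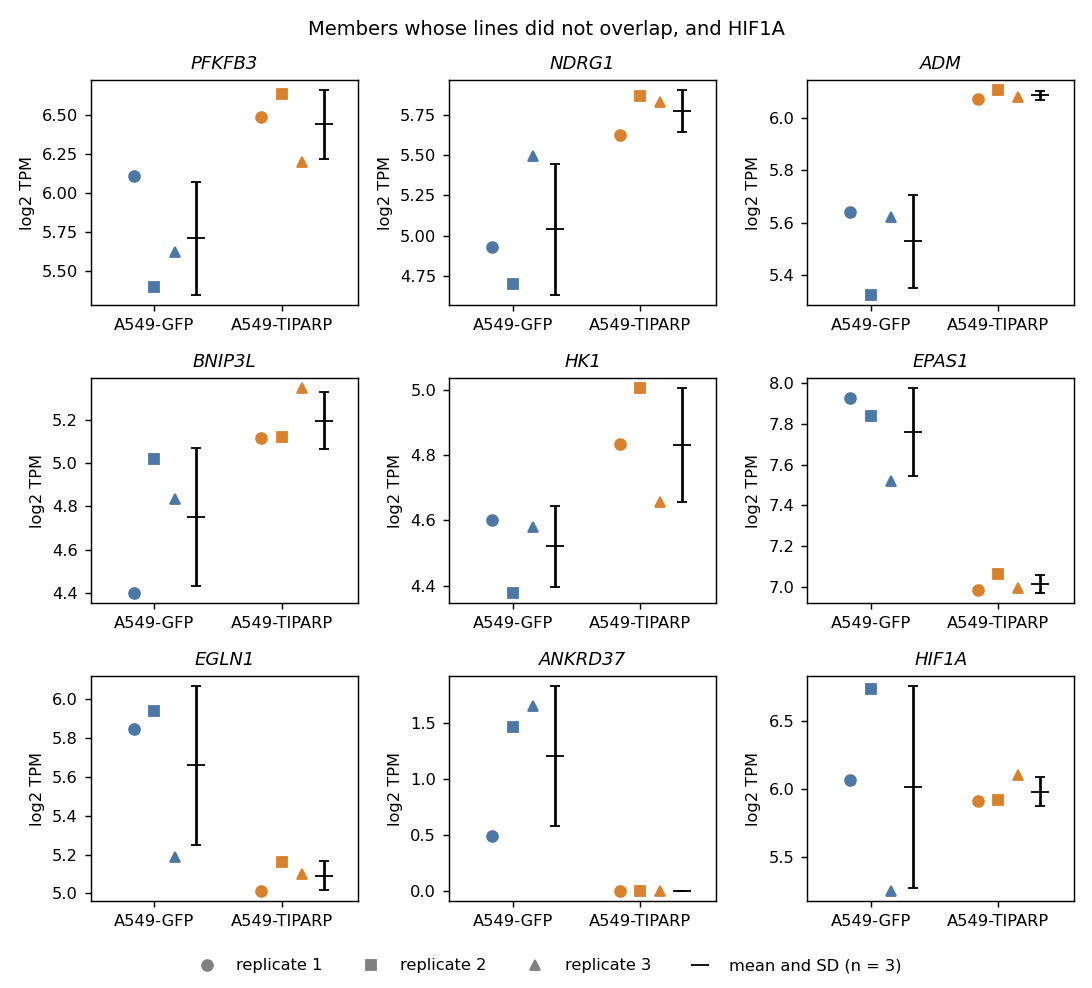
Log2 TPM (y axis of each panel, own range and not starting at 0) of the 8 genes whose lines did not overlap and of HIF1A, in A549-GFP and A549-TIPARP cells (x axis), with a symbol per replicate and the mean and SD of the 3 libraries. The A549-TIPARP libraries of EPAS1 and ADM sit close together and well away from A549-GFP, while for EGLN1 and HK1 the nearest libraries of the lines almost meet and for HIF1A the A549-GFP libraries spread to both sides.

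Of the 8 other hypoxia targets, 3 stood higher in A549-TIPARP cells without overlap, beside 5.36% of all genes, and 4 overlapped. The remaining gene, ANKRD37, stood lower, beside 3.54% of all genes, and was at the floor in A549-TIPARP cells. NDRG1 (Entrez Gene ID 10397), a stress-induced gene often used as a sign of hypoxia, is located on chromosome 8 (hg38) between 133237175 and 133302022, minus strand. It had 30.4, 26.0 and 45.0 TPM in A549-GFP and 49.4, 58.3 and 57.0 TPM in A549-TIPARP cells. The highest A549-GFP library, replicate 3, was just under the lowest A549-TIPARP library. The mean log2 TPM was 5.04 ± 0.41 against 5.77 ± 0.13 (SD, n = 3 each), 1.67-fold higher, with a limma p of 0.0131 and an adjusted p of 0.966. On omission of single libraries the log2 fold change ran from 0.57 to 0.96, and p was at most 0.0482.

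ADM (Entrez Gene ID 133) encodes adrenomedullin, a secreted peptide that relaxes and promotes the growth of blood vessels, and is located on chromosome 11 (hg38) between 10305073 and 10307397, plus strand. Its TPM was 49.9, 40.0 and 49.2 in A549-GFP and 67.4, 68.9 and 67.6 in A549-TIPARP cells. The A549-TIPARP libraries were nearly equal and all above A549-GFP. The mean log2 TPM was 5.53 ± 0.18 against 6.09 ± 0.02 (SD, n = 3 each), 1.47-fold higher. Its limma p was 0.0112 and its adjusted p was 0.932, and the log2 fold change stayed between 0.46 and 0.62 on omission of single libraries. Over the alternatives the adjusted p ran from 0.266 to 1.

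BNIP3 and BNIP3L are related receptors that target mitochondria for removal, and HIF-1 is known to induce both. BNIP3L (Entrez Gene ID 665, chromosome 8 of hg38, 26383054 to 26505636, plus strand) had 21.1, 32.4 and 28.5 TPM in A549-GFP and 34.7, 34.8 and 40.7 TPM in A549-TIPARP cells. The lines did not overlap, and the mean was 1.36-fold higher with a limma p of 0.0757. On omission of single libraries that p ran from 0.0203 without A549-GFP replicate 2 to 0.271 without A549-GFP replicate 1, and the log2 fold change from 0.58 to 0.27. BNIP3 had 54.0, 76.8 and 56.4 TPM and then 60.4, 74.9 and 69.4 TPM in the same order, so that its highest value was in A549-GFP replicate 2 and the lines overlapped.

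ANKRD37 (Entrez Gene ID 353322), an ankyrin-repeat gene used in hypoxia signatures, is located on chromosome 4 (hg38) between 185396021 and 185400628, plus strand. Its TPM was 1.40, 2.76 and 3.15 in the A549-GFP libraries, and it was listed at 0, that is at 1 TPM or less, in all 3 A549-TIPARP libraries. No fold change or p is given for it, since its A549-TIPARP level was not resolved and it passed the limit through A549-GFP libraries alone. These values lie close to the floor, and ANKRD37 dropped out of the test when TPM above 2 was asked in 3 libraries.

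The carbonic anhydrases CA9 and CA12, which regulate pH at the cell surface, overlapped between the lines, as did KDM3A, a histone demethylase. CA9, a widely used marker of HIF-1 activity, had 76.9, 61.8 and 109 TPM in A549-GFP and 72.9, 65.4 and 64.9 TPM in A549-TIPARP cells. Its mean was 1.19-fold lower, with a limma p of 0.304, and the A549-GFP value of replicate 3 was far above the other 5. The log2 fold change of -0.25 was -0.44 on omission of A549-GFP replicate 2 (p of 0.0515). On omission of A549-GFP replicate 3 it was -0.03 (p of 0.882). CA12 ranged from 206 to 421 TPM in A549-GFP cells and from 226 to 280 TPM in A549-TIPARP cells, with the highest value in A549-GFP replicate 2. KDM3A ranged from 11.3 to 19.3 TPM and from 14.4 to 16.7 TPM.

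Of the 20 analysed glycolytic genes, 11 had more than 100 TPM in all 6 libraries. The lines overlapped for all but PFKFB3 and HK1, both higher in A549-TIPARP cells. Over all genes, 5.36% were higher without overlap and 8.91% did not overlap in either direction, so that this count is near the share of all genes. The 20 analysed genes together made up 2.15%, 1.40% and 2.29% of the TPM of A549-GFP replicates 1, 2 and 3 and 1.96%, 2.11% and 1.53% of A549-TIPARP replicates 1, 2 and 3. The lowest A549-GFP library and the lowest A549-TIPARP library were both well under the other 4, so that libraries differed more within a line than the lines did. GAPDH led with 4208 to 8600 TPM over the 6 libraries. PKM, the pyruvate kinase, had 1598 to 2548 TPM, the enolase ENO1 1332 to 2166 TPM and LDHA 1372 to 2049 TPM, with the last pair in different orders in different libraries. At the low end PFKFB4 lay between 2.55 and 3.20 TPM and PDK1, the kinase that turns off pyruvate dehydrogenase, between 3.26 and 5.01 TPM.

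**Figure D3:**
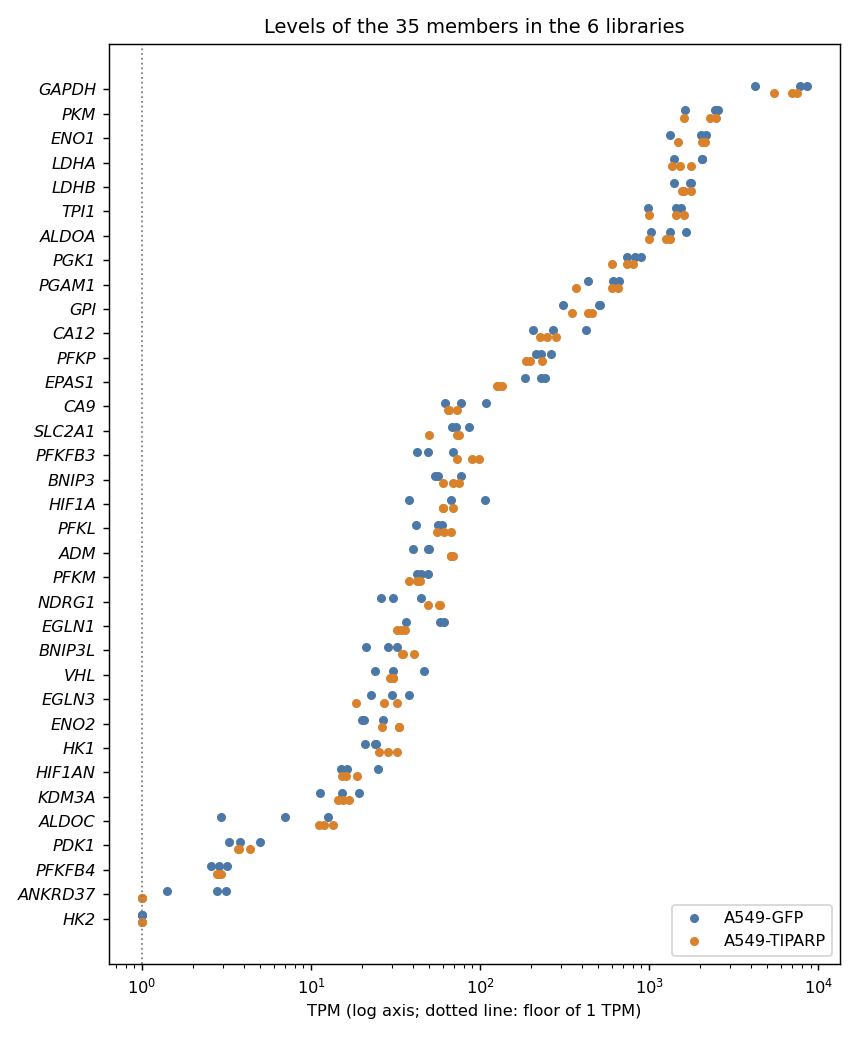
TPM (x axis, log scale) of the 35 genes (y axis, ordered by mean log2 TPM) with a point for each library, A549-GFP in blue and A549-TIPARP in orange, and the floor of 1 TPM as a dotted line. The levels run from HK2, listed at the floor in every library, to GAPDH at 4208 to 8600 TPM, and for most genes the points of the lines overlap.

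PFKFB3 had the lowest p of the 20 analysed glycolytic genes. It encodes the enzyme that makes fructose-2,6-bisphosphate, the strongest activator of phosphofructokinase, and is located on chromosome 10 (hg38) between 6144934 and 6254644, plus strand (Entrez Gene ID 5209). It had 69.0, 42.1 and 49.3 TPM in A549-GFP and 89.8, 99.1 and 73.5 TPM in A549-TIPARP cells. The lines did not overlap, though A549-TIPARP replicate 3 was close to A549-GFP replicate 1. The mean log2 TPM was 5.71 ± 0.36 against 6.44 ± 0.22 (SD, n = 3 each), 1.66-fold higher. Its limma p was 0.0117 and its adjusted p was 0.957, and on omission of single libraries p ran from 0.00353 to 0.0517, the last without A549-TIPARP replicate 2. The adjusted p ran from 0.412 to 1 over the alternatives. Its relative PFKFB4, which makes the same metabolite, was level at 2.55, 2.87 and 3.20 TPM in A549-GFP and 2.92, 2.78 and 2.87 TPM in A549-TIPARP cells.

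The first steps are glucose uptake and phosphorylation. SLC2A1, the glucose transporter GLUT1, had 85.4, 71.6 and 68.6 TPM in A549-GFP and 73.1, 74.9 and 49.6 TPM in A549-TIPARP cells. The lines overlapped, and the limma p was 0.356. HK1 (Entrez Gene ID 3098, chromosome 10 of hg38, 69269984 to 69401884, plus strand) had 24.3, 20.8 and 23.9 TPM in A549-GFP and 28.5, 32.1 and 25.2 TPM in A549-TIPARP cells. These did not overlap, with a mean 1.24-fold higher and a limma p of 0.149. HK2, the hexokinase that HIF-1 is known to induce, was at the floor. HKDC1, a further hexokinase of the other glycolysis genes, singled out after its values were seen, stood above HK1 in every library with 45.2 to 118 TPM.

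The 3 phosphofructokinase genes differed in level, with PFKP at 186 to 264 TPM above PFKL at 41.7 to 67.5 TPM and PFKM at 38.2 to 48.9 TPM, and PFKL and PFKM overlapping. None of the 3 separated the lines. Of the aldolases, ALDOA had 993 to 1644 TPM and ALDOC 2.93 to 13.5 TPM. ALDOC had 7.02, 2.93 and 12.6 TPM in A549-GFP and 11.9, 13.5 and 11.2 TPM in A549-TIPARP cells. Its mean was 1.91-fold higher, with a limma p of 0.0807, but A549-GFP replicate 3 lay among the A549-TIPARP libraries. The log2 fold change of 0.93 was 0.37 on omission of A549-GFP replicate 2 (p of 0.240) and 1.42 on omission of A549-GFP replicate 3 (p of 0.00927).

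In the lower part of the pathway, GAPDH had 7786, 4208 and 8600 TPM in A549-GFP and 7032, 7481 and 5452 TPM in A549-TIPARP cells. Its log2 fold change was 0.01 (limma p of 0.976), and -0.31 without A549-GFP replicate 2. TPI1, PGK1, PGAM1, ENO1 and PKM had limma p-values between 0.250 and 0.921. These enzymes and LDHA have processed pseudogenes, and how reads matching several genes were counted is not given in the sources used here. ENO2, the enolase isoform of neurons that HIF-1 is also known to induce, had 20.1, 26.8 and 20.5 TPM in A549-GFP and 33.2, 33.1 and 26.3 TPM in A549-TIPARP cells. A549-GFP replicate 2 and A549-TIPARP replicate 3 crossed, and the limma p was 0.0594. On omission of single libraries p ran from 0.0111 without A549-GFP replicate 2 to 0.193 without A549-TIPARP replicate 1, and it was 0.0449 without A549-TIPARP replicate 3.

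LDHA and LDHB encode the subunits of lactate dehydrogenase, of which LDHA favours lactate formation. LDHA had 2046, 1410 and 2049 TPM in A549-GFP and 1529, 1779 and 1372 TPM in A549-TIPARP cells, and the lines overlapped with a limma p of 0.287. Its log2 fold change was -0.22, and -0.40 on omission of A549-GFP replicate 2 with p at 0.0380, while the other omissions gave p from 0.210 to 0.569. LDHB ranged from 1395 to 1759 TPM and from 1569 to 1767 TPM. The ratio of LDHA to LDHB within a library was 1.18, 1.01 and 1.17 in A549-GFP and 0.947, 1.01 and 0.874 in A549-TIPARP cells, so that no A549-TIPARP library reached the lowest A549-GFP ratio, although replicate 2 of each line nearly met. PDK1 had 5.01, 3.81 and 3.26 TPM in A549-GFP and 4.36, 3.75 and 3.71 TPM in A549-TIPARP cells, with no separation of the lines (limma p of 0.955).

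Ratios within a library were compared for 6 gene pairs, which were chosen after their values were seen. The lines did not overlap for LDHA to LDHB, ALDOC to ALDOA, PFKP to PFKL and HK1 to HKDC1. Since the pairs were so chosen, no test is given. The ALDOC to ALDOA ratio was 0.00528, 0.00287 and 0.00763 in A549-GFP and 0.00941, 0.0101 and 0.0112 in A549-TIPARP cells. The PFKP to PFKL ratio was 4.11, 5.17 and 4.41 in A549-GFP and 2.92, 3.78 and 3.36 in A549-TIPARP cells. The ratios of EPAS1 to HIF1A and of ENO2 to ENO1 overlapped between the lines. A ratio shows that the pair differed unequally and not which gene did.

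The abundant glycolytic enzymes deviated together from library to library. All 11 genes above 100 TPM were lowest in A549-GFP replicate 2 among the A549-GFP libraries, where 40.0% of the 1030 genes above that level were, and all 11 were lowest in A549-TIPARP replicate 3 among the A549-TIPARP libraries, where 55.0% of those 1030 genes were. The median deviation of the 20 genes from the mean of the 6 libraries was -0.29 on the log2 scale in A549-GFP replicate 2 and -0.25 in A549-TIPARP replicate 3, and between 0.10 and 0.17 in the other libraries. With these 2 libraries left out, a choice made after the data were seen, the median log2 fold change of the glycolytic genes was -0.03. What set these libraries apart was not tested.

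**Figure D4:**
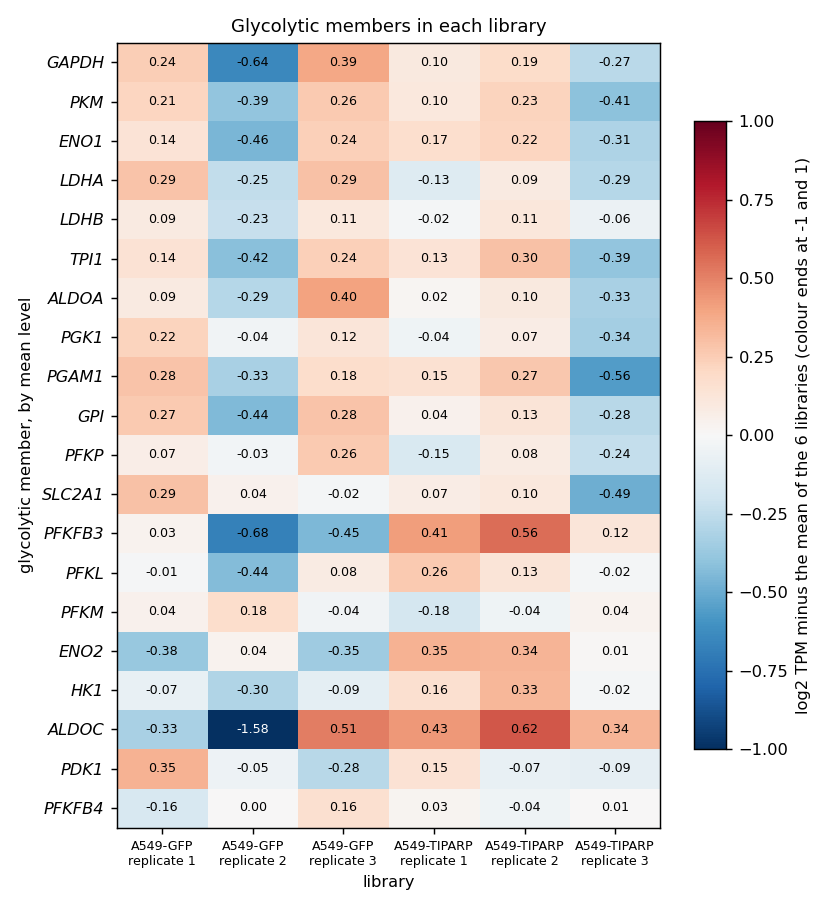
Log2 TPM of the 20 analysed glycolytic genes (rows, ordered by mean level) in each library (columns), minus the gene's mean over the 6 libraries, printed in each cell and coloured from blue (lower) to red (higher), with the colour ending at -1 and 1. The abundant enzymes in the upper rows are blue in A549-GFP replicate 2 and A549-TIPARP replicate 3, while PFKFB3 is red in all 3 A549-TIPARP libraries and HK1 in 2 of them.

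Further genes of the pathway were taken from 3 lists. Of the other glycolysis genes 29 of 36 were analysed, and at an unadjusted p under 0.05 there was 1 higher, beside 2.97% of all genes, and none lower, a share near that of all genes. That gene was ENO3, the muscle enolase, with 12.7, 16.3 and 14.1 TPM in A549-GFP and 23.8, 23.4 and 24.4 TPM in A549-TIPARP cells, 1.67-fold higher without overlap (limma p of 0.00531, adjusted p of 0.778, and 0.225 to 1 over the alternatives). LDHD, a D-lactate dehydrogenase, was 1.56-fold higher and PDK4, a pyruvate dehydrogenase kinase, was 1.75-fold lower, both with overlap. The log2 fold change of LDHD was 0.64. It ran from 0.36 without A549-GFP replicate 1 to 0.89 without A549-TIPARP replicate 2. PDK4 had 36.1, 139 and 43.6 TPM in A549-GFP and 22.2, 27.2 and 67.0 TPM in A549-TIPARP cells, with the highest values in A549-GFP replicate 2 and A549-TIPARP replicate 3. Its log2 fold change was -0.81, and on omission of single libraries it ran from -0.21 without A549-GFP replicate 2 to -1.29 without A549-TIPARP replicate 3.

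Of the 39 symbols listed as other hypoxia targets, which include an older name of ERO1A, 37 were found among the entries and 33 were analysed. At an unadjusted p under 0.05 there was 1 higher gene, beside 2.97% of all genes, and 1 lower, beside 0.88%. The median log2 fold change was 0.03. The lines did not overlap for 1 higher gene, HILPDA, beside 5.36% of all genes, and for 5 lower genes, beside 3.54%. The lower genes were DDIT4, NDUFA4L2, ERO1A, FAM162A and CITED2, of which the last 3 are named after their values were seen and had limma p-values from 0.0899 to 0.310. HILPDA, a lipid droplet protein, had 48.7, 38.4 and 52.8 TPM in A549-GFP and 63.9, 84.0 and 58.3 TPM in A549-TIPARP cells, 1.47-fold higher (limma p of 0.0303, adjusted p of 0.994). DDIT4, an inhibitor of mTORC1 signalling, had 345, 651 and 416 TPM and then 301, 330 and 239 TPM in the same order, 1.58-fold lower (limma p of 0.0280, adjusted p of 0.994). With the replicate number as a block the limma p was 0.0725 for HILPDA and 0.0229 for DDIT4. On omission of single libraries p ran from 0.0265 to 0.140 for HILPDA and from 0.00928 to 0.104 for DDIT4. Without A549-GFP replicate 2 it was 0.0652 and 0.0668, and the log2 fold change of DDIT4 went from -0.66 to -0.40. STC2 was 1.85-fold lower, NDUFA4L2 1.80-fold lower, MIR210HG 1.65-fold higher and SPAG4 1.5-fold higher, at limma p-values from 0.0855 to 0.161. These folds turned on single A549-GFP libraries. The log2 fold change of STC2 was -0.89 over all libraries, -0.15 on omission of A549-GFP replicate 2 and -1.48 on omission of A549-GFP replicate 3 (p of 0.0299). In the same order it was -0.85, -0.39 and -1.15 for NDUFA4L2 (the last with p of 0.0393), 0.72, 0.20 and 1.05 for MIR210HG, and 0.58, 0.44 and 0.90 for SPAG4 (the last with p of 0.0111).

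Of the 24 symbols listed as other HIF pathway factors, which include older names of ELOB and ELOC, 21 were found among the entries. Of these 18 were analysed, and none had an unadjusted limma p under 0.05, beside 3.85% of all genes. On omission of A549-GFP replicate 2 there were 3 higher genes at that threshold, beside 9.3% of all genes in that fit. They were ARNT2, OS9 and USP20, of which OS9 and USP20 were named after their values were seen. On omission of A549-GFP replicate 3, EP300, also named after its values were seen, was lower (log2 fold change -0.70, limma p of 0.00985). In that fit 5.6% of all genes were lower at that threshold. ARNT, the usual beta subunit, singled out after its values were seen, was 1.03-fold higher with overlap, and its relative ARNT2 was 1.58-fold higher with overlap, at 3.77, 6.43 and 2.30 TPM in A549-GFP and 5.83, 6.06 and 6.24 TPM in A549-TIPARP cells. Its limma p was 0.119, and on omission of single libraries it ran from 0.00597 without A549-GFP replicate 2 to 0.358 without A549-GFP replicate 3, with a log2 fold change of 1.04 and 0.30. HIF3A, which encodes a further alpha subunit, was at the floor in all 6 libraries.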

How the data were processed

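RNA-seq tables of 3 A549-GFP and 3 A549-TIPARP libraries were analysed. Stranded mRNA libraries were prepared from total RNA by the company Macrogen. The authors ran the paired-end reads through Strand NGS (default settings) against hg38 transcripts, and deposited log2 TPM per gene for each library. The software version, the annotation release and the handling of strand and of multiply matching reads are not given in the sources used here. No read counts were used, so no count-based test was run and depth is unknown.

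Samples were grouped and numbered by their titles. The filter of the study, TPM above 2 in 1 or more libraries, kept 13181 genes. Fold changes are differences of mean deposited log2 TPM. Tests were run with limma 3.58.1 in R 4.3.3 on log2(TPM + 1) over all analysed genes, with a variance trend, no block and Benjamini-Hochberg adjustment, and the fit was tested on simulated data. Genes described in every library are those with an unadjusted p under 0.05, without overlap of the lines or past 1.5-fold, and 10 named whatever their values (HIF1A, EPAS1, VHL, HIF1AN, EGLN1, SLC2A1, GAPDH, LDHA, PDK1 and CA9). ENO2, BNIP3 and PFKFB4 meet none of these and were added after their values were seen. The genes and lists were chosen with earlier results of these data known. Of the further lists, genes with an unadjusted p under 0.05 or past 1.5-fold are named, up to 8 a list. Alternatives were a pseudocount of 0.1, deposited values without one, arithmetic means, other filters, median-ratio rescaling, no trend, a replicate block and each library left out in turn. Leaving out both A549-GFP replicate 2 and A549-TIPARP replicate 3 was added after the data were seen.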

Additional observations from a re-analysis of the deposited data

How the results depend on the processing

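None of the 34 analysed genes of the pathway had a limma adjusted p under 0.05 in any of the 14 fits run as alternatives. At an unadjusted p under 0.05 the higher genes were 5 in place of 3 after median-ratio rescaling, where the share over all genes was 4.42% in place of 2.97%. They were from 2 to 5 on omission of single libraries, the 5 without A549-GFP replicate 2, where that share was 9.3%. The lower genes were 1 in place of 3 with A549-GFP replicate 2 and A549-TIPARP replicate 3 both left out, where the share was 1.4% in place of 0.88%, and from 2 to 3 on omission of single libraries, where it ran from 0.281% to 5.6%. The median log2 fold change of the other hypoxia targets was 0.29 with both libraries left out and from 0.0253 to 0.27 on omission of single libraries, the highest without A549-GFP replicate 2. On omission of single libraries the median of the glycolytic genes ran from -0.17 to 0.0977 and that of the HIF genes from -0.37 to -0.11, and with both libraries left out the latter was -0.0252.

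Over all analysed genes limma called 2, and 1 without a filter, 1 with the replicate block and from 1 to 3 on omission of single libraries. The genes more than 2-fold lower were 37 after rescaling and 143 by arithmetic means, in place of 57, and from 39 to 200 on omission of single libraries, while the higher ones were from 228 to 383 in place of 202. The adjusted p of TIPARP was above 0.05 without a filter (log2 fold change 4.11), with the replicate block (4.11), with both libraries left out (4.44) and in 5 of the 6 fits with a library left out in turn (3.69 to 4.27). In the remaining fit, without A549-GFP replicate 2, the log2 fold change was 4.50 and the adjusted p 0.0331.

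Signs turned for genes near 0. After rescaling, which moved the median of all analysed genes from -0.07 to -0.0015, these were PKM (0.0099), PDK1 (0.0526), PFKFB4 (0.0624) and HIF1A (0.03). With A549-GFP replicate 2 and A549-TIPARP replicate 3 both left out they were GAPDH (-0.17), LDHB (-0.0501), PDK1 (0.00070), CA12 (0.0128), HIF1A (0.26), HIF1AN (0.14) and VHL (0.15). On omission of single libraries the change on the log2 scale ran from -0.31 to 0.0548 for GPI, -0.32 to 0.0270 for ALDOA, -0.18 to 0.23 for TPI1, -0.31 to 0.20 for GAPDH, -0.28 to 0.17 for PGAM1, -0.16 to 0.22 for ENO1, -0.27 to 0.14 for PKM, -0.0858 to 0.0815 for LDHB, -0.15 to 0.16 for PDK1, -0.0849 to 0.0782 for PFKFB4, -0.42 to 0.0933 for CA12, -0.14 to 0.24 for KDM3A, -0.42 to 0.33 for HIF1A, -0.29 to 0.0772 for HIF1AN, -0.33 to 0.16 for VHL and -0.42 to 0.0020 for EGLN3. Causes were not tested. The titles number the libraries of both lines as experiments 1, 2 and 3, and the sources used here do not say whether these were paired. Deviations of same-numbered libraries correlated with r = 0.41, -0.49 and -0.36 in experiments 1, 2 and 3. Not every library correlated best with its own number. Deviations were taken from the mean of only 3 libraries, so that these values cannot decide whether the libraries were paired. With the block no gene of the pathway had an adjusted p under 0.05, and EGLN1 had an unadjusted p of 0.0525 in place of 0.0384. Without depth, a difference under the floor of 1 TPM was not detectable.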
